A study of Rattus norvegicus with 60 samples.

Results

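The step from a cumulative inhaled dose of 11.25 to 22.5 mg/m3 of multi-walled carbon nanotubes (MWCNT) was examined in rat lung, by asking which genes responded more, or less, at the higher dose than at the lower. The libraries were chosen by their labels: all from the exposure sets at these doses, except MWCNT_011 replicate 2, which the labels mark as an outlier. This left 23 of the 24 libraries of both sets, and 23 of the 60 in the series. The rats were male Fischer 344 (F344/DuCrl), about 3 months old, and breathed in whole-body chambers for 6 hours a day on 3 days. Lungs were taken 1 day after the last exposure, and RNA from a piece of lung was sequenced. Group MWCNT_011 (5 libraries) received 11.25 mg/m3 and group MWCNT_022 (6 libraries) received 22.5 mg/m3. Groups air_011 and air_022 (6 libraries each) were rats that breathed filtered air alongside each set. Every set was a separate exposure with its own air rats, so dose and exposure run differ together and cannot be told apart. No group carried a genetic change, and each library was labelled as a separate sample with no record of how cages were shared between them.

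Total counts per library ran from 9.056 to 16.18, with a mean of 11.59, in units of 1000000 counts. Levels are given as counts scaled to such a unit (CPM). The summed level of 7 lung epithelial marker genes was 24850 to 41210 CPM in the 23 libraries, and none of the 7 was at 0. Several values set air_022 replicate 2 and MWCNT_022 replicates 5 and 6 apart from the rest. Their scores on the first principal component (29.3% of the variance) were 48.0, 65.2 and 32.8, against -21.1 to 12.1 in the other 20. Ribosomal protein genes held 2.67, 3.20 and 2.34% of their counts, against 1.5 to 1.87% elsewhere. Red blood cell genes, before TMM scaling, summed to 7187 CPM in air_022 replicate 2 and 8416 CPM in MWCNT_022 replicate 5, but to 4187 CPM in MWCNT_022 replicate 6, within the 2666 to 4816 CPM of the other 20. The number of step genes and the counts of the main lists are also given for the 20 other libraries, a choice made after seeing the data. The median standard deviation of a gene's log2 CPM was 0.118 in air_011, 0.114 in MWCNT_011, 0.189 in air_022 and 0.200 in MWCNT_022.

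The genes that marked the step included 18 of cell division and a few that serve the making of motile cilia. A dividing cell copies its DNA with the MCM helicase and nucleotide-synthesis enzymes, then separates its chromosomes with kinases, kinesins and checkpoint proteins whose genes are switched on late in the cycle. Airway multiciliated cells do not divide, but they borrow parts of the same machinery to amplify centrioles on structures called deuterosomes, under cyclin O and Foxn4. The promoters of division genes commonly carry a CCAAT box, the cell cycle genes homology region (CHR) or an E2F site.

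Of 49 genes called at the step, 43 had a promoter in the RefSeq table for build GRCr8. The 150 bases before the start of 5 of them are shown 5′ to 3′ on the gene's own strand, because these genes stand for the groups described below: mitosis, replication, centriole amplification and inflammation. Capitals mark the CCAAT box, the CHR (read as TTTGAA) and the E2F site (read as TTTGGCGC or TTTCCCGC or TTTCGCGC). All were searched on both strands, and no motif contains another.
Cdk1 (chr20:19265143-19265292, plus strand): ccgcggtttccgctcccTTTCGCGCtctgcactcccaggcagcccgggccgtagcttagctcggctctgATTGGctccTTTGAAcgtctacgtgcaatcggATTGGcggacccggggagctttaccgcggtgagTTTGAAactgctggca
Top2a (chr10:84473094-84473243, minus strand): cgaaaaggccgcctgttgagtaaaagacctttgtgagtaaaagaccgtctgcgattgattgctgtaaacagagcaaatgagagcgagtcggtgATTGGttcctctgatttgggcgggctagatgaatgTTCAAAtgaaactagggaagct
Mcm5 (chr19:13488663-13488812, plus strand): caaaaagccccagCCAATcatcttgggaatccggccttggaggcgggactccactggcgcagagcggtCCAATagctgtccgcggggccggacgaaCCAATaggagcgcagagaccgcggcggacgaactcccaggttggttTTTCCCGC
Ccno (chr2:46363924-46364073, plus strand): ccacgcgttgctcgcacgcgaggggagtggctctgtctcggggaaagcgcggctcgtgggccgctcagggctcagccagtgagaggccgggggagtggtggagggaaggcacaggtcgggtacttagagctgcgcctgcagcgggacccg
Il1rn (chr3:27520172-27520321, plus strand): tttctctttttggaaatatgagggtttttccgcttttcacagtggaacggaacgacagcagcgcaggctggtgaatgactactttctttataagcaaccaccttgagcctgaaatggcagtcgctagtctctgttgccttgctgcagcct
The Cdk1 and Top2a promoters hold a CHR 16 and 22 bases before the start, with a CCAAT box 49 and 57 bases before it. Cdk1 has a further CHR and CCAAT box 72 and 81 bases before the start. Mcm5 has 3 CCAAT boxes and an E2F site in the window, and Ccno and Il1rn have no match there. In the full windows of 300 bases (250 before to 50 after the start), 17 of the 42 promoters of genes higher at the step (40.5%) held a CHR, as did 18.1% of 27457 promoters. Of the 16 that belonged to the cell cycle lists, 11 (68.8%) held a CHR and 5 (31.2%) an E2F site, which 1.82% of all promoters held. Of the other 26, 23.1% held a CHR and none an E2F site, shares near those of all promoters. These 26 stand outside the lists but not all outside cell division. They include Depdc1, Kif22, Spag5 and Plk4, which held a CHR, and Nek2, E2f7 and Stil, which did not. Over whole lists, called or not, CHR stood in 72.4% of the promoters of the mitosis list and 4.55% of those of the S phase list, and E2F sites in 3.45% and 45.5%. A CCAAT box stood in 37.7% of all promoters, 57.1% of the 42, 75% of the 16 and 46.2% of the other 26. These are descriptions of letters, with no test.

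The step was one of genes rising. The difference of effects, (MWCNT_022 minus air_022) minus (MWCNT_011 minus air_011) on the log2 scale, passed an edgeR Benjamini-Hochberg adjusted p of 0.05 for 49 of 15367 genes tested (0.319%). Of these, 47 responded more upward at 22.5 (0.306%) and 2 more downward (0.013%). At 22.5 mg/m3 itself, 511 genes were higher than in air (3.33%) and 99 lower (0.644%), and without air_022 replicate 2 these numbers were 1016 and 467. At 11.25 mg/m3, Ccno and Chia were higher (0.013%) and no gene was lower (0%). Without the adjustment, 448 genes had p under 0.05 there, 239 of them lower. DESeq2 and limma voom also called 0 lower at 11.25.

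The 49 genes fell into 2 of the possible patterns. In the first, 47 were called at 22.5 but not at 11.25, with 45 higher and 2 lower. In the second, Ccno and Chia were called at both doses and rose further. No gene was called in opposite directions, or at the lower dose only. Only Ccno and Chia, 0.013% of all genes tested, were called at 11.25. Those patterns therefore had almost no room, and nearly any step gene called at 22.5 belongs to the first pattern. The model also shared each gene's spread between the sets, although libraries of the 22.5 set varied more, which favours calls at 22.5 only. Over the 45 higher genes of the first pattern the median log2 effect was 1.21 at 22.5 and 0.112 at 11.25, where 34 were above 0 and 11 below. For 30 of the 45 the 95% interval of the effect at 11.25 lay within a 1.5-fold change either way, so a larger change there lies outside that interval. For 9 genes the interval at 11.25 lay above 0 although the adjusted p missed the threshold, and such genes are not shown to start at the step. None of the 49 had a mean under 1 CPM, and their median level was 6.67 CPM, against 25 CPM for all genes tested.

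**Figure D1:**
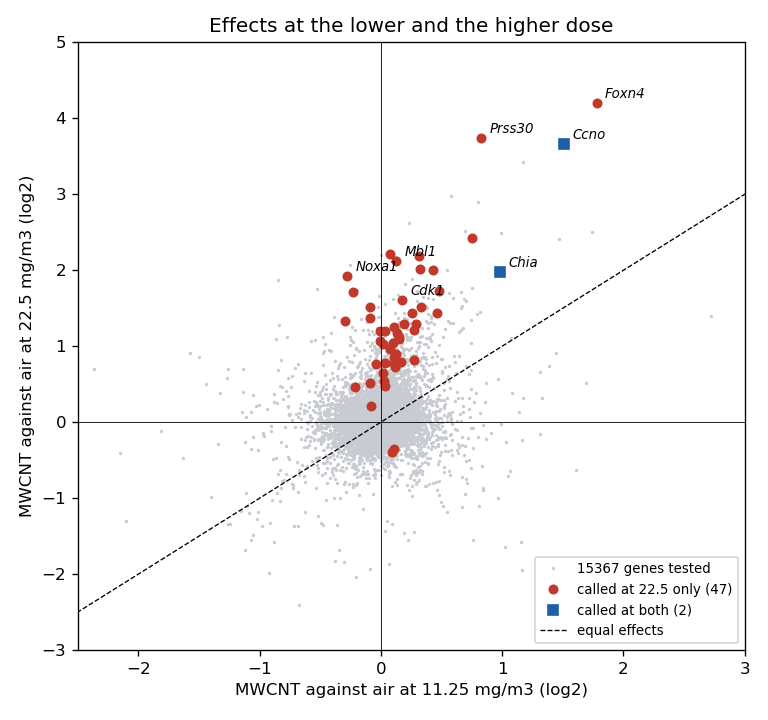
Log2 effect of MWCNT against air at 11.25 mg/m3 (x axis) and 22.5 mg/m3 (y axis) for 15367 genes (grey; 3 lie outside the plotted range), with 47 genes called in the difference and at 22.5 only (red circles), 2 called at both doses (blue squares) and a dashed line of equal effects. The higher step genes stand above the line and mostly close to 0 on the x axis, and Ccno, Chia and Foxn4 stand to the right.

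Ccno, the cyclin that drives centriole amplification in multiciliated cells, had the smallest adjusted p of the step. Its level was 1.27 to 2.1 CPM in air_011 (median 1.70), and 5.55, 4.0, 4.97, 4.01 and 5.27 CPM in MWCNT_011. In air_022 it was 1.22 to 1.96 CPM (median 1.46) and in MWCNT_022 17.8 to 23.4 CPM (median 18.1). No exposed library overlapped the air libraries of its set, and all of MWCNT_022 lay above all of MWCNT_011. The log2 effect was 1.51 ± 0.14 (SE) at 11.25 and 3.66 ± 0.13 at 22.5, a difference of 2.16 ± 0.20 (adjusted p = 1.43e-06).

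Chia, the acidic chitinase made by lung epithelium and macrophages, was the other gene called at both doses. It stood at 113.6 to 153 CPM in air_011 (median 142), 229, 342, 284, 237 and 281 CPM in MWCNT_011, 113.2 to 179 CPM in air_022 (median 141) and 485 to 709 CPM in MWCNT_022 (median 536). The groups of each set did not overlap, and the air groups differed by 0.04 on the log2 scale (adjusted p = 0.843). Its effect was 0.98 ± 0.12 at 11.25 and 1.98 ± 0.11 at 22.5 (difference 0.996 ± 0.16, adjusted p = 0.00532).

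Genes of centriole amplification formed a small group around Ccno. Of 18 tested genes of the multiciliated list, 3 rose at the step (Foxn4, Ccno and Ccdc67) and none fell. The list's median difference was 0.471 (all genes 0.00475), 17 of the 18 were above 0, and 8 were called at 22.5. Of all genes tested, 0.306% were higher at the step and 3.33% at 22.5. Without the 3 libraries that stand apart, 4 of the list rose at the step. Foxn4, a transcription factor of multiciliated cell differentiation, was at 0.202 to 0.525 CPM in air_011, and at 1.87, 1.67, 0.67, 1.34 and 1.29 CPM in MWCNT_011. It was at 0 to 0.504 CPM in air_022 and 3.76 to 5.36 CPM in MWCNT_022. Exposed and air libraries did not overlap in either set, and the effects were 1.78 ± 0.34 at 11.25 (adjusted p = 0.123) and 4.20 ± 0.32 at 22.5. The difference was 2.43 ± 0.51 (adjusted p = 0.0364). The 95% interval at 11.25 ran from 1.08 to 2.48, so the call alone puts Foxn4 among the genes seen at 22.5 only.

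Ccdc67, an older symbol of Deup1, encodes the scaffold of the deuterosome. Its level was 3.06 to 6.41 CPM in air_011, 6.22, 7.55, 6.31, 7.05 and 5.74 CPM in MWCNT_011, 3.79 to 5.88 CPM in air_022 and 12.7 to 18.1 CPM in MWCNT_022. The lower-dose libraries overlapped their air group and the higher-dose libraries did not. The difference of effects was 1.25 ± 0.21 (adjusted p = 0.00605). The effect at the lower dose was 0.48 ± 0.15, not called, but its interval was wholly positive (0.161 to 0.801). Ccdc67 is therefore not shown to start at the step. The centriole genes Plk4 (1.01 ± 0.19, adjusted p = 0.0132), the kinase that starts centriole duplication, and Stil (1.57 ± 0.25, adjusted p = 0.00389), its partner, rose too. Both also serve dividing cells, and Plk4 is named here after its values were seen. At the lower dose the intervals of Plk4 (0.0082 to 0.576) and Stil (0.0605 to 0.804) were wholly positive too, without a call. Neither gene is shown to start at the step.

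The other 15 genes of the list, among them Foxj1 and structural genes of the cilium, did not pass the test of the step. Foxj1, the master regulator of motile cilia, had 34.8 to 55.6 CPM in air_011, 57.6, 54.1, 53, 55.7 and 41.9 CPM in MWCNT_011, 35.8 to 58.7 CPM in air_022 and 66.7 to 89.8 CPM in MWCNT_022. Its groups overlapped at 11.25 and not at 22.5, and the difference of effects was 0.63 ± 0.18 (adjusted p = 0.185). Mcidas, a coregulator upstream of Ccno that is named here after its values were seen, had effects of 1.47 ± 0.38 at 11.25, not called, and of 2.41 ± 0.32 at 22.5 (adjusted p = 3.05e-05), with a difference of 0.94 ± 0.53 (adjusted p = 0.711). Without Ccno, Foxn4 and Ccdc67 the list summed to 791 to 1040 CPM in air_011, 770.6 to 940 CPM in MWCNT_011, 846 to 1336 CPM in air_022 and 933 to 1228 CPM in MWCNT_022. Those sums overlap between exposed and air rats of both sets, and no list gene in the table was at 0 in every library. In bulk lung, more cells of a type and more RNA per cell cannot be told apart.

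**Figure D2:**
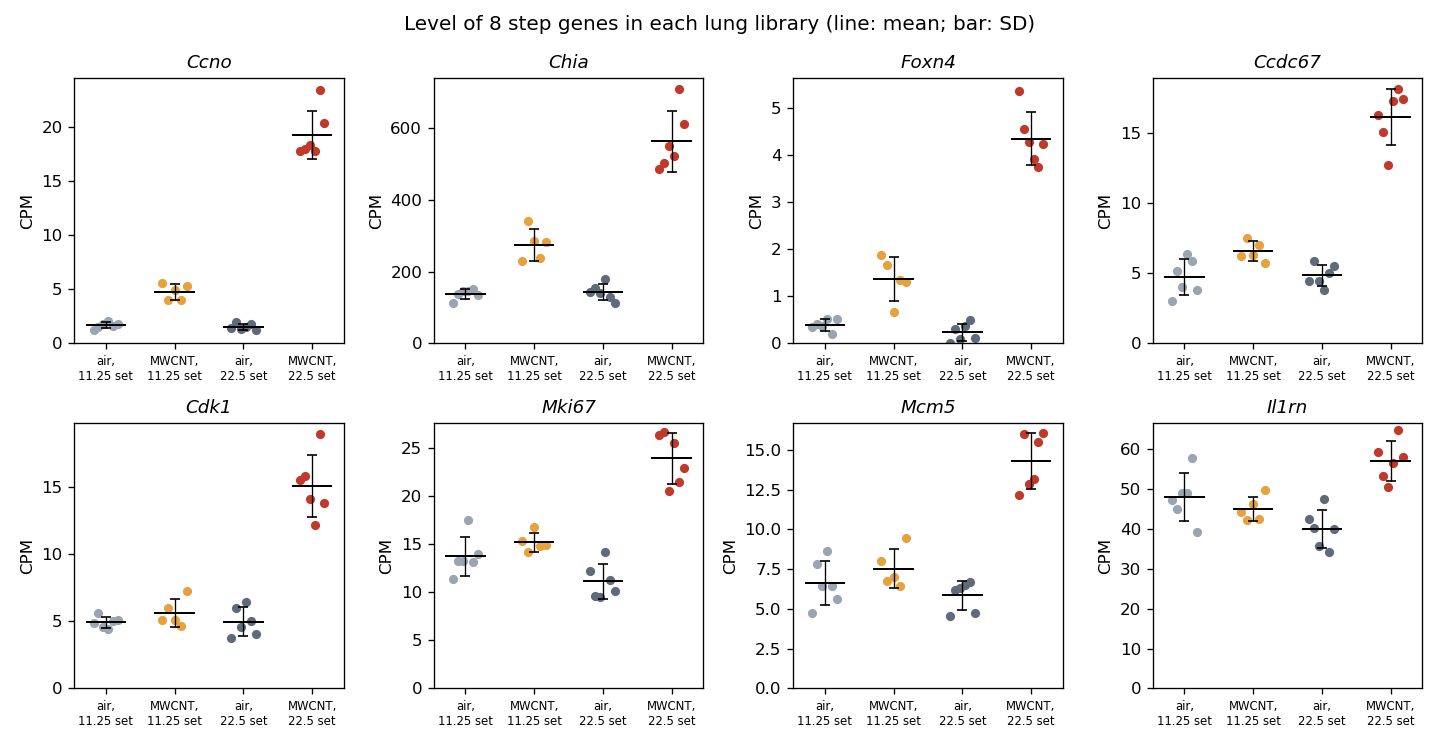
Level in CPM (linear axes from 0) of 8 step genes in each library of the 4 groups, with the mean (line) and SD (bar). Ccno, Chia and Foxn4 step up at 11.25 mg/m3 and again at 22.5 mg/m3, while Cdk1, Mki67, Mcm5 and Il1rn in MWCNT_011 stay within or near the range of the air rats.

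Genes of cell division made the largest group of the step. Of 35 tested genes of mitosis and cytokinesis, 12 rose at the step, none fell and 23 did not pass, and of 28 genes of DNA replication and S phase, 6 rose and 22 did not pass. Together that is 18 of 63 genes (28.6%), and 38.3% of the 47 genes higher at the step, against 0.306% of all genes tested. The mitosis list had a median log2 effect of 0.142 at 11.25, with 0 of 35 called, and 1.19 at 22.5, with 32 of 35 called. Its median difference was 0.962, and all 35 were above 0. The S phase list had medians of 0.0338 and 0.537, with 0 and 22 of 28 called, and a median difference of 0.576. Without the 3 libraries that stand apart, 15 mitosis genes and 6 S phase genes were higher at the step.

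Cdk1, the kinase that starts mitosis, was at 4.41 to 5.58 CPM in air_011 (median 4.94), 5.09, 6.0, 5.07, 4.64 and 7.22 CPM in MWCNT_011, 3.74 to 6.41 CPM in air_022 (median 4.80) and 12.2 to 19 CPM in MWCNT_022 (median 14.8). The other groups lay together and the higher-dose group lay apart. The effects were 0.18 ± 0.15 at 11.25 and 1.61 ± 0.13 at 22.5, a difference of 1.43 ± 0.20 (adjusted p = 0.000892).

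Mki67, the standard marker of cycling cells, was at 11.4 to 17.5 CPM in air_011 and 15.4, 14.2, 16.8, 14.8 and 14.9 CPM in MWCNT_011. It was at 9.51 to 14.2 CPM in air_022 and 20.6 to 26.7 CPM in MWCNT_022. All MWCNT_011 libraries lay within the range of their air rats, and all MWCNT_022 libraries lay above every other library. The difference of effects was 0.95 ± 0.15 (adjusted p = 0.00389).

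The other 10 mitosis genes that passed serve chromosome segregation and cytokinesis, and 23 of the list did not pass. Top2a, which untangles sister chromosomes, had a difference of 1.19 ± 0.20 and effects of 0.25 ± 0.14 and 1.44 ± 0.13. Differences for the kinetochore and checkpoint genes were 1.21 ± 0.24 for Bub1b, 0.98 ± 0.21 for Ndc80 and 0.97 ± 0.17 for Cdc20. Cdc20, which activates the anaphase-promoting complex, had an interval above 0 at 11.25 already (0.21 to 0.72). The spindle and cytokinesis genes Kif11, Prc1 and Ect2 differed by 1.07 ± 0.21, 0.67 ± 0.12 and 1.18 ± 0.24. Birc5, a subunit of the chromosomal passenger complex, differed by 1.47 ± 0.31, Plk1 by 0.94 ± 0.18 and Ccna2 by 0.94 ± 0.21. Adjusted p-values of these 10 genes ran from 0.00532 to 0.0430.

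Replication genes moved by less. Mcm5, a subunit of the replicative helicase, was at 4.76 to 8.61 CPM in air_011, 8.03, 6.77, 6.98, 6.42 and 9.44 CPM in MWCNT_011, 4.55 to 6.72 CPM in air_022 and 12.1 to 16.1 CPM in MWCNT_022. Only the higher-dose group of the 4 stood clear of the others for this gene. Its difference of effects was 1.10 ± 0.20 (adjusted p = 0.00973). The helicase subunits Mcm6, Mcm3 and Mcm2 differed by 0.63 ± 0.12, 0.53 ± 0.10 and 0.45 ± 0.09, with effects at 11.25 of 0.02 ± 0.09, 0.02 ± 0.07 and 0.03 ± 0.07. Rrm2 and Tk1, which supply deoxynucleotides, differed by 1.04 ± 0.20 and 0.89 ± 0.16.

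**Figure D3:**
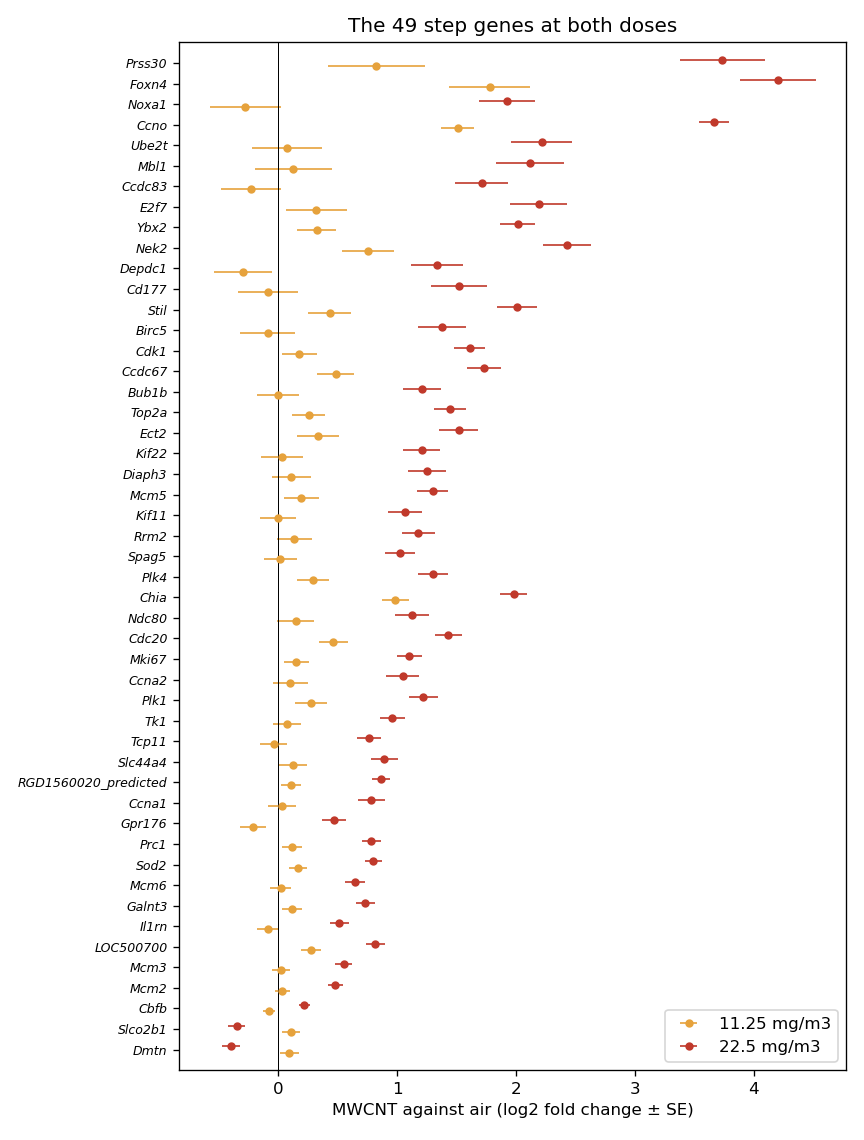
Log2 fold change of MWCNT against air with its SE at 11.25 mg/m3 (orange) and 22.5 mg/m3 (red) for the 49 step genes, in order of the difference of effects. For most genes the lower-dose value lies near 0, and only Dmtn and Slco2b1, at the bottom, fell at 22.5 mg/m3.

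Several division genes outside those lists were among the largest differences. E2f7, a repressor of the E2F programme, differed by 1.87 ± 0.36, Nek2, a centrosome kinase, by 1.68 ± 0.30, Depdc1 by 1.63 ± 0.33 and Ube2t, a ubiquitin-conjugating enzyme of DNA crosslink repair, by 2.14 ± 0.40. Nek2 had an interval above 0 at 11.25 (0.31 to 1.2). Spag5, Kif22 and Diaph3, named here after their values were seen, encode a spindle protein, a kinesin and a formin and differed by 1.01 ± 0.19, 1.17 ± 0.24 and 1.14 ± 0.23. Diaph3 was lower in air_022 than in air_011 (-0.68, adjusted p = 0.0324), which enters its difference.

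The largest difference of all was in Prss30, a serine protease gene. It was at 0.255 to 1.16 CPM in air_011, 1.67, 1.11, 1.24, 2.14 and 0.925 CPM in MWCNT_011, 0.0903 to 1.22 CPM in air_022 and 5.55 to 9.60 CPM in MWCNT_022. The lower-dose rats overlapped their air group and the higher-dose rats did not. The difference of effects was 2.91 ± 0.56 (adjusted p = 0.0172), from effects of 0.83 ± 0.40 and 3.74 ± 0.36. Noxa1, an activator of epithelial NADPH oxidase, went from -0.28 ± 0.30 at 11.25 to 1.92 ± 0.24 at 22.5 (difference 2.20 ± 0.39, adjusted p = 0.00845). Its level was 0.463 to 1.0 CPM in MWCNT_011 and 2.22 to 4.41 CPM in MWCNT_022, with 0.510 to 1.45 CPM in the air groups. Ccdc83 (1.94 ± 0.34) and Ybx2 (1.69 ± 0.22), an RNA-binding protein best known from germ cells, complete the upper part of the list.

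In the edgeR fit, no more than 1 gene in each inflammatory list passed the test of the step. Of all genes tested, that fit called 0.306% higher at the step. DESeq2 called 3 chemokine genes and 3 acute phase genes higher there, and its share over all genes is given at the end. Il1rn, the antagonist of the interleukin-1 receptor, was at 39.3 to 57.8 CPM in air_011, 44.2, 42.3, 46.3, 42.5 and 49.8 CPM in MWCNT_011, 34.2 to 47.6 CPM in air_022 and 50.5 to 65 CPM in MWCNT_022. Exposed libraries lay inside the air range at the lower dose and above it at the higher dose. They overlapped air_011, however, and the air groups differed by -0.26 (adjusted p = 0.0837). The difference of effects was 0.60 ± 0.12 (adjusted p = 0.0205), and in the 20 libraries it was 0.54 with an adjusted p of 0.0549. It was the only 1 of 15 tested cytokine genes to pass. Of the 15, 3 were higher at 22.5, as were 3.33% of all genes tested.

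Sod2, the mitochondrial superoxide dismutase that inflammation induces, was at 147.3 to 167 CPM in air_011, 167, 169, 170, 173 and 194 CPM in MWCNT_011, 114.1 to 159.2 CPM in air_022 and 201 to 268 CPM in MWCNT_022. All higher-dose libraries lay above every other library. The difference was 0.63 ± 0.10 (adjusted p = 0.00532). It was 1 of 21 genes of the oxidative stress list, whose median difference was -0.0369.

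Cd177, a surface protein of neutrophils, was at 12.3 to 22.9 CPM in air_011, 20.4, 11.6, 15.5, 15.2 and 20.2 CPM in MWCNT_011, 5.69 to 21.4 CPM in air_022 and 33.6 to 55 CPM in MWCNT_022. All higher-dose libraries lay above every other library. The difference was 1.61 ± 0.35 (adjusted p = 0.0430), and in the 20 libraries 1.63 (adjusted p = 0.0942). Of 13 tested genes of the neutrophil list, which does not hold Cd177, none passed at the step and 3 were higher at 22.5. Over all genes tested, 0.306% were higher at the step and 3.33% at 22.5. The list summed to 223 to 293 CPM in air_011, 231 to 302 CPM in MWCNT_011, 203 to 281 CPM in air_022 and 284 to 447 CPM in MWCNT_022, with no gene at 0 in every library. The part of neutrophil number in these differences was not tested.

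Mbl1, a mannose-binding lectin of the complement system that liver also makes, differed by 1.99 ± 0.44 (adjusted p = 0.0430). It was at 0.340 to 1.11 CPM in air_011, 1.0, 0.777, 0.765, 0.981 and 0.833 CPM in MWCNT_011, 0.198 to 0.929 CPM in air_022 and 1.46 to 3.85 CPM in MWCNT_022. None of 15 liver marker genes passed at the step. With 0.319% of all genes tested passing, none of 15 is near the overall share. None of the 15 was at 0 in every library. They summed to 276 to 374 CPM in air_011 and 297 to 475 CPM in MWCNT_011. In air_022 the sum was 225 to 370 CPM and in MWCNT_022 236 to 330 CPM.

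No chemokine gene passed as a difference between doses in the edgeR fit. Of 27 chemokine genes, 12 were higher at 22.5, none at 11.25 and none in the difference, although 22 of the 27 differences were above 0 (median 0.225). Over all genes tested, 3.33% were higher at 22.5 and 0.306% in the difference, so none of 27 is near the overall share. Ccl2, the monocyte attractant, was at 1.78 to 6.25 CPM in air_011, 4.35, 2.89, 4.21, 5.62 and 4.72 CPM in MWCNT_011, 2.99 to 4.83 CPM in air_022 and 8.23 to 16.6 CPM in MWCNT_022. Its effects were 0.39 ± 0.25 and 1.64 ± 0.22, with a difference of 1.25 ± 0.33 (adjusted p = 0.131). The neutrophil attractant Cxcl6 differed by 2.04 ± 0.54 (adjusted p = 0.131). DESeq2 called 3 of the chemokine genes higher in the difference, among them Ccl2 (adjusted p = 0.0334) and Cxcl6 (adjusted p = 0.0242). The share of all genes that DESeq2 called is given at the end. Limma voom with a weight per group called 0 chemokine genes, as did the fit of 20 libraries. DESeq2 also called Slc26a4, an anion exchanger of airway epithelium (adjusted p = 0.0334). Missing the edgeR threshold does not show that Ccl2, Cxcl6 and Slc26a4 responded alike at both doses. The interval of the Ccl2 difference ran from 0.57 to 1.93.

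The remaining genes chosen for display gave differences that did not pass. They were 0.79 ± 0.35 for Cxcl1, 1.30 ± 0.53 for Ccl7, 0.43 ± 0.32 for Ccl22 and 0.48 ± 0.24 for Il1b. For Retnla, a resistin-like product of type 2 inflammation, the difference was 1.46 ± 0.46 (adjusted p = 0.271), with 24.7 to 104 CPM in MWCNT_022 and 12.2 to 24.5 CPM in MWCNT_011. Lcn2, an iron-binding acute phase protein, differed by 0.94 ± 0.37, the matrix protein genes Spp1 and Mmp12 by 1.03 ± 0.68 and 1.06 ± 0.36, and Hmgcs1 of cholesterol synthesis by 0.37 ± 0.11. The stress genes Hmox1 and Mt2A differed by 0.29 ± 0.17 and 0.30 ± 0.40. Scgb1a1 of club cells and Sftpc of alveolar type 2 cells gave -0.09 ± 0.23 and 0.02 ± 0.19. Alox15, a lipoxygenase, was lower at 22.5 (-0.72 ± 0.12) with a difference of -0.52 ± 0.18 (adjusted p = 0.346), and Serpinb10 and Saa4 gave -0.34 ± 0.18 and 0.17 ± 0.35.

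Some genes had an effect at 11.25 of at least 0.5 of that at 22.5, and of these the largest are given. Kng1 and Kng1l1, kininogen genes that are near copies and may share reads, had effects of 0.79 ± 0.23 and 0.66 ± 0.18 at 11.25 and 1.43 ± 0.21 and 1.21 ± 0.17 at 22.5. Ccl17, C2cd4b and the kinetochore gene Nuf2 had 0.74 ± 0.34, 0.68 ± 0.34 and 0.64 ± 0.20 at 11.25 against 1.34 ± 0.27, 1.24 ± 0.30 and 1.19 ± 0.17 at 22.5. None of the 5 was called at 11.25. The interval of Nuf2 at 11.25 ran from 0.23 to 1.05. On the falling side Mylk3, Pla2g15, Farp2, Fam19a3 and Gulp1 had effects of -0.11 to -0.27 at 11.25, not called, and of -0.22 to -0.49 at 22.5.

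Among all genes higher at 22.5 mg/m3, most had small effects of the same sign at the lower dose, and for genes lower at 22.5 the share was close to the share over all genes. The 511 genes higher at 22.5 had a median log2 effect of 0.705 there and 0.101 at 11.25, where 77.1% were above 0, against 48.9% of all genes. Of the 511, 3.91% had an effect at 11.25 of 0.5 or more of that at 22.5, against 32% of all genes. Being called at 22.5 favours large effects there, which lowers this share. Those of the 511 that rose over 2-fold had medians of 1.30 and 0.258, with 82.2% above 0. The 99 genes lower at 22.5 had medians of -0.291 and -0.0155, and 56.6% were below 0 at 11.25, against 51.1% of all genes. The 3 that fell over 2-fold had medians of -1.45 and 0.0325, with 33.3% below 0 at 11.25. The comparisons at the 2 doses share no samples.

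**Figure D4:**
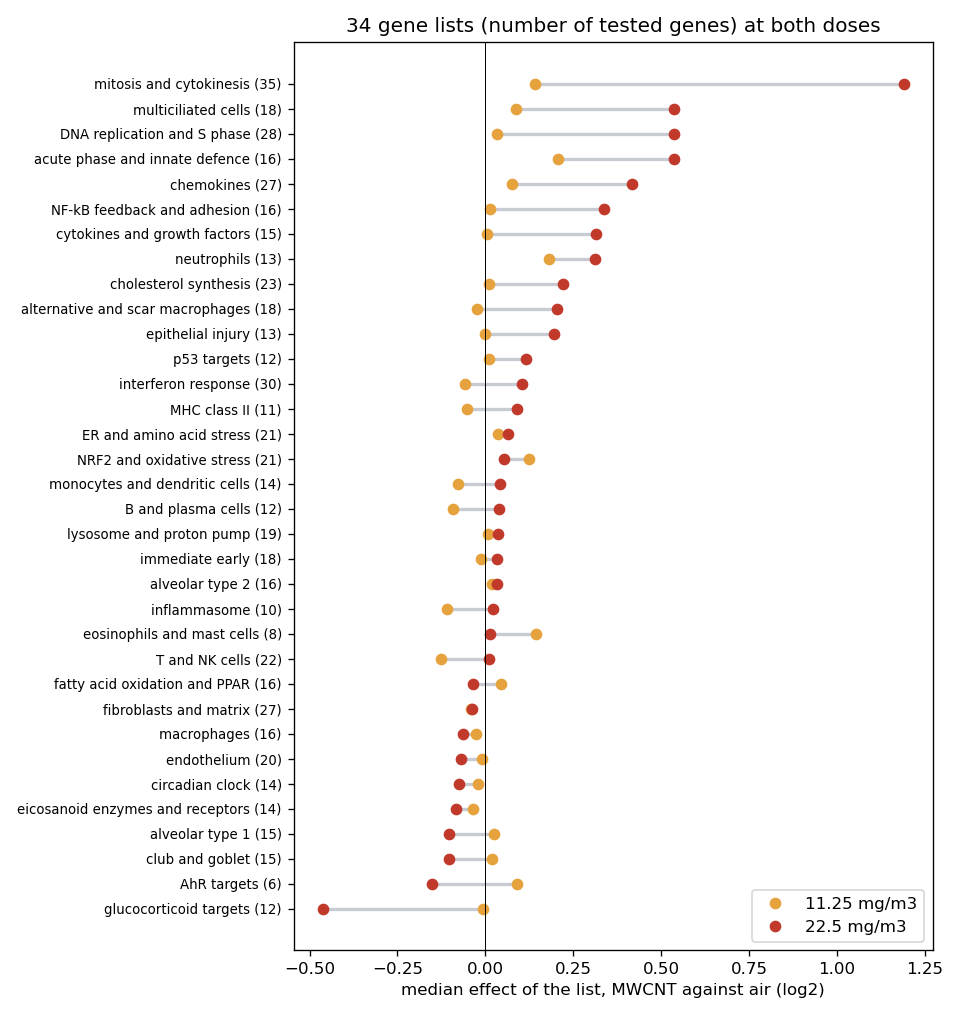
Median log2 effect of MWCNT against air over the tested genes of 34 lists (number tested in brackets) at 11.25 mg/m3 (orange) and 22.5 mg/m3 (red). The mitosis list has the widest gap (0.142 and 1.19), and the lists of multiciliated cells, S phase and acute phase follow at 22.5 mg/m3.

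The other lists had no or few genes past the test of the step, which 0.319% of all genes tested passed. In lists of this size, no gene passing is near that share. At 22.5, 3.33% of all genes tested were higher. Besides Chia in the acute phase list (1 of 16), none of the genes of NF-kB feedback (16 tested, 8 higher at 22.5), cholesterol synthesis (23 tested, 6 higher at 22.5), the interferon response (30 tested), MHC class II (11), T and NK cells (22), B and plasma cells (12), macrophages (16), endothelium (20) or fibroblasts (27) passed. The macrophage genes summed to 860 to 1197 CPM in MWCNT_022 and 1020 to 1206 CPM in MWCNT_011. Medians could still differ from 0 where no gene passed. Interferon genes had a median difference of 0.224, with 28 of 30 above 0, and cholesterol genes one of 0.192, with 23 of 23 above 0. Glucocorticoid targets had a median difference of -0.495 with 0 of 12 passing, the most negative of the 34 lists plotted, and their median also differed by 0.270 between the air groups. Marker genes of liver and mesothelium, which are not plotted, had median differences of -0.603 (15 tested) and -0.763 (6 tested) with none passing, and the liver median differed by -1.42 between the air groups. Without the 3 libraries that stand apart, 1 alveolar type 1 and 1 alveolar type 2 gene were lower at the step and 1 fibroblast gene was higher. DESeq2 called 3 acute phase genes, 2 club and goblet cell genes and 1 fibroblast gene higher at the step. It called 1 club and goblet cell gene lower. Of the 49 step genes, 24 stood in a list and 25 in none.

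The 2 genes that fell at the step were Slco2b1, an organic anion transporter, and Dmtn, an actin-binding protein of the red cell skeleton. Slco2b1 was at 40.6 to 48.6 CPM in air_011, 48.4, 48.1, 48.9, 41.8 and 49 CPM in MWCNT_011, 37.9 to 50.6 CPM in air_022 and 33.3 to 42.3 CPM in MWCNT_022. Dmtn was at 23.4 to 25.9, then 26.6, 27.5, 25.4, 26.5 and 25.3, then 22.8 to 28.9 and 16.8 to 24.9 CPM in the same groups. Exposed and air libraries overlapped at 22.5 for both genes. The differences were -0.46 ± 0.10 (adjusted p = 0.0430) and -0.49 ± 0.11 (adjusted p = 0.0482). None of the 7 tested red blood cell genes passed at the step. With 0.319% of all genes tested passing, none of 7 is near the overall share. Dmtn was the last gene inside the threshold, and the first outside had an adjusted p of 0.0502.

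A difference of effects also depends on the air groups. Between air_022 and air_011, 440 genes differed (2.86%), and the 47 genes higher at the step had a median of -0.204 there, with 41 below 0 (all genes 0.00805). The difference of effects subtracts air_022 and adds air_011, so choosing genes by it favours such negative values. Galnt3, a mucin-type glycosylation enzyme, and Diaph3 were called lower in air_022. Compared directly, without air groups, MWCNT_022 and MWCNT_011 differed in the same direction and past the threshold for all 49, where 10.1% of all genes tested were higher and 8.12% lower. The 49 were chosen with these same exposed libraries, so the count is a description. For Cdk1 the direct difference was 1.43, for Ccno 2.01, for Mki67 0.65, for Il1rn 0.34 and for Top2a 0.83. For the last 3 of these genes air_022 lay below air_011, by a log2 difference of -0.30, -0.26 and -0.35. For 46 of the 49 genes MWCNT_022 and air_022 did not overlap (2.32% of all genes), and for Ccno, Chia and Foxn4 this held in the 11.25 set too (0.683% of all genes).

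Single libraries moved the number of step genes. Leaving out each of the 23 libraries in turn gave 28 to 61 genes higher and 0 to 5 lower, with the lowest number without MWCNT_011 replicate 5, where 29 of the 49 kept their call. Of the 49, 28 were called in all 23 such fits and all 49 kept their direction. Without the 3 libraries that stand apart, 62 genes were higher and 15 lower, and 43 of the 49 remained. Ccno, Chia, Cdk1, Mki67, Mcm5, Ccdc67, Sod2, Top2a, Noxa1 and Prss30 were called in every one of these fits. Bub1b, Kif22 and Rrm2 lost their call without MWCNT_011 replicate 5, and Il1rn without MWCNT_011 replicate 3 or 5. Mcm2 lost it without MWCNT_011 replicate 3 or 5 or MWCNT_022 replicate 6, and in the 20 libraries. Depdc1 lost it without air_011 replicate 3 or 4 or MWCNT_011 replicate 1 or 5, and Diaph3 without air_011 replicate 5, MWCNT_011 replicate 5, air_022 replicate 3 or MWCNT_022 replicate 6. Ect2 lost it without air_011 replicate 3 or 5, MWCNT_011 replicate 5 or air_022 replicate 1 or 6. Foxn4 was called in 12 of the 23 fits (adjusted p 0.0148 to 0.0932), Cd177 in 10, Birc5 in 8, Ccna2 in 6, Ndc80 and Slco2b1 in 5, Mbl1 in 4 and Dmtn in 3. Foxn4 lost it without air_011 replicate 2, 3, 4 or 6, MWCNT_011 replicate 5 or 6, air_022 replicate 3 or 6, or MWCNT_022 replicate 1, 2 or 6. MWCNT_011 replicate 5 was among the deciding libraries for each of these 8 genes except Slco2b1, and MWCNT_022 replicate 2 for all 8.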

How the data were processed

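Lung RNA went into stranded mRNA libraries with 12 cycles of PCR, per the labels' protocols. The authors deposited a table of raw counts, by gene symbol, with 30045 rows and 60 libraries. Per the submitters' processing notes, bcl2fastq 2.19, Trimmomatic 0.35, HISAT2 2.1.0, Cufflinks, SAMtools 1.8 and HTSeq 0.11.2 were used. No label or header used here names the build, annotation or strand setting, so overlapping and antisense genes cannot be separated, and promoters were matched by symbol to RefSeq (GRCr8), where 12878 of 15367 tested symbols (83.8%) matched. A spreadsheet date replaced the symbol in 27 rows.

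Genes were kept by filterByExpr (minimum count 10), which held 99.901% of the counts. Counts of the 4 groups were fitted in one model by edgeR 4.0.16 in R 4.3.3 (TMM scaling, robust quasi-likelihood F-test, two-sided), with a common biological coefficient of variation of 0.125. Calls used the Benjamini-Hochberg method over all genes tested, with a threshold of 0.05. The SE came from the log2 change and the root of its F statistic. Levels are CPM after TMM scaling, and the depths of 9.056 to 16.18 (units of 1000000 counts) set their precision. P-values measure the spread between these samples, and the model shared each gene's spread between the 4 groups. The median SD of log2 CPM was 0.118 and 0.114 in air_011 and MWCNT_011, but 0.189 and 0.2 in air_022 and MWCNT_022. For a typical gene the shared spread is thus too wide for the lower dose and too narrow for the higher dose. This favours calls at the higher dose only. Fits of each set alone avoid this but rest on fewer libraries. Replicate pairs (55) differed by a chi-square of at least 2.66 per degree of freedom, so none was counted as a duplicate. MWCNT_011 replicate 2 was left out by its label and put back as an alternative. Other alternatives were DESeq2 1.42.0, limma 3.58.1 voom, other filters, scaling and groups, and each library left out. The fit was also run on simulated data with the same spread for every gene and group. That run does not test the effect of the wider spread in air_022 and MWCNT_022.

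Genes named were the 15 largest differences, genes called at 11.25, the 5 largest rises and falls at 22.5 with an effect at 11.25 of at least 0.5 of it, up to 4 called members of each list, and 26 preset genes, of which Muc5ac did not pass the filter. Genes without a gene name or under 1 CPM were passed over. Further step genes given with values, among them Plk4, Galnt3 and the other called mitosis and S phase genes, were added after their values were seen. The members, gene lists and named genes were chosen with earlier results of these data known, so no list is independent evidence.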

Additional observations from a re-analysis of the deposited data

Results flagged for a closer look

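The effect of MWCNT differed between 22.5 and 11.25 mg/m3 for 49 genes by the test of the difference itself, and these are the genes described above. Dose and exposure run cannot be told apart in them.

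In 18 of 200 combinations of a named gene and a group (9%), 1 library lay far from the others by Dixon's 95% critical value, which by chance is passed in about 1 in 20 groups. In air_022 replicate 2, one of the libraries that stand apart, this was so for Ube2t (0.929 CPM, the others 0.252 to 0.428), Dmtn (22.8, the others 26.8 to 28.9), Kng1 (4.95) and Scgb1a1 (10160, the others 5117 to 6898). In other air libraries it was Birc5 in air_011 replicate 2 (0.903 CPM), Hmox1 in air_011 replicate 5 (54.9), C2cd4b in air_022 replicate 5 (7.90), Pla2g15 and Fam19a3 in air_022 replicate 4 (163 and 50.2) and Ccl7 in air_022 replicate 6 (2.69). In MWCNT_011 it was Slco2b1 in replicate 5 (41.8 CPM, the others 48.1 to 49), Lcn2 in replicate 6 (29.1) and Alox15 in replicate 3 (40.1). In MWCNT_022 it was Farp2 and Ccl7 in replicate 6 (11.9 and 6.92 CPM), Fam19a3 in replicate 5 (27.4), Mmp12 in replicate 4 (36.5) and Slc26a4 in replicate 3 (9.87, the others 22.1 to 27.9).

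MWCNT_011 replicate 2, which the labels mark as an outlier and which entered no comparison above, had 5.60 CPM of Ccno, against 1.27 to 2.1 CPM in air_011, and 276 CPM of Chia, against 113.6 to 153 CPM. Its 15 liver marker genes summed to 2957 CPM, against 296 to 473 CPM in the other MWCNT_011 libraries. Values of this library and of this liver comparison are without TMM scaling.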

How the results depend on the processing

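The 49 step genes kept their direction under every alternative run, and 34 kept their call in all 8 alternatives of sample choice, scaling, filter and tool that were listed from the labels. The shares of tested genes called moved more. Genes higher at the step (0.306%) came to 0.7% with all 53 libraries in one fit, 0.56% with DESeq2, 0.865% with limma voom weighting each library, 10.1% with exposed lungs compared directly, and 0.181 to 0.398% with 1 library left out. Genes lower at the step (0.013%) came to 0.0813, 0.117, 0.156 and 8.12% in the same order, 0% without a filter, 0.00659% with a filter of 1 CPM, 0.0974% without the 3 libraries that stand apart and 0 to 0.0326% with 1 library left out. Genes higher at 22.5 (3.33%) came to 5.18% with 53 libraries, 1.84% with a voom weight per group, 2.14% with the set fitted alone, and 2.37 to 6.62% with 1 library left out, the highest without air_022 replicate 2 (1016 genes). Genes lower at 22.5 (0.644%) came to 1.62% with 53 libraries, 1.51% with DESeq2, 1.43 and 0.189% with a voom weight per library and per group, 0.147% with the set alone, 1.06% without the 3 libraries and 0.345 to 3.04% with 1 library left out. Genes higher at 11.25 (0.013%) came to 0.025% with 53 libraries and to 0.0201% (3 genes) with the set fitted alone, where no gene was lower. Genes called at the step and at 22.5 only (0.306%) came to 0.738% with 53 libraries, 0.644% with DESeq2, 0.97% with voom per library, 0.467% without the 3 libraries and 0.175 to 0.398% with 1 library left out. The cause of these moves was not tested. The direct comparison drops the air groups, and so both their error and their subtraction of the run difference. These 2 cannot be told apart, and 2.86% of genes differed between the air groups. No result reversed. Depth limits genes near 1 CPM, which rest on few counts per library. No paired analysis was possible because the labels give the groups no shared replicate numbers.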
